A study of Homo sapiens with 4 samples.

Results

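The genes described here are 10 members of the IL6, IL1 and colony-stimulating cytokine families: the ligands IL6, IL11, LIF, CSF1, CSF2, CSF3, IL1A and IL1B, and the receptor chains IL6ST and IL10RA. They were chosen by name, with earlier results of these data known. All non-control probes of the array that carry a member's symbol or a RefSeq transcript of it were taken. This gave 15 probes of the 50238 on the array and 10 of 30988 named genes or transcripts. Expression was measured in A549, a human lung adenocarcinoma cell line, in 2 samples treated with embelin (15 µM for 4 h) and 2 control samples, which the labels give as untreated and for which they name no vehicle. The cells of both groups were moved to medium with 2% serum 12 h before treatment, so the low serum is shared by both groups. Embelin is a benzoquinone from plants known as an inhibitor of XIAP, a protein that blocks caspases, and the experiment asks which genes respond early in the apoptosis it induces. The labels do not say whether the 2 samples of a group came from separate cultures, so p-values measure the spread between these samples, which may be technical.

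IL6, IL11 and LIF are secreted cytokines that each bind a specific receptor chain and then share the transmembrane subunit IL6ST, which passes the signal to Janus kinases and STAT transcription factors, above all STAT3. CSF1, CSF2 (GM-CSF) and CSF3 (G-CSF) drive the growth and maturation of macrophages and granulocytes. IL1A and IL1B act on a receptor complex of IL1R1 and IL1RAP that signals through MYD88 and IRAK kinases to NF-kB, and this route is a known inducer of IL6, LIF, CSF2 and CSF3 in epithelial cells. IL10RA is the ligand-binding chain of the IL10 receptor and is best known from leukocytes. Lung epithelial tumour cells are known to secrete several of these cytokines.

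After 4 h of embelin, IL11 and CSF2 rose about 5-fold in the main fit, and no member probe fell with a call after adjustment. IL11 increased 5.29-fold and CSF2 5.10-fold (limma, Benjamini-Hochberg adjusted p = 0.0302 and 0.0344). The brighter LIF probe, CSF3, IL1B and the third of 3 IL10RA probes also gave higher signals on both embelin arrays than on both controls, with adjusted p between 0.0597 and 0.0963, which does not pass the threshold of 0.05, and the first IL10RA probe did so by a small difference (adjusted p = 0.46). IL6 had a lower signal on both embelin arrays, at 2.11-fold below control, with an adjusted p of 0.0932. Of the 10 member probes that could be tested, 2 were called higher and 0 lower, where 0.83% of all 26145 probes tested were called higher and 0.249% lower. At least 2-fold differences without a call rule were seen in 6 of the 10 upward and 1 downward, where 6.78% and 5.51% of all probes tested reached that size. CSF3 and the third IL10RA probe, 2 of these 6, passed the filter on dim probes only through the embelin arrays. Among the 7 member probes above background on every array the count was 4 upward and 1 downward. Of all 22752 probes above background on every array, 933 reached that size upward and 754 downward. The members were chosen with earlier results of these data known, so these shares are not independent evidence.

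The promoter stretches of both called genes and of IL6, whose lower signal was not called, are shown for the sequence context of these members, and no relation between their motifs and the signals was tested. They are the 250 bases before the RefSeq transcription start (assembly GRCh38.p14), written 5′ to 3′ on the strand of the gene, and capitals mark each match, on either strand, to an AP-1 element (TGANTCA), a cyclic AMP element (TGACGTCA), a STAT element (TTCNNNGAA), the core of a hypoxia element (ACGTG) or an NF-kB element. No matches overlap in these 3 stretches.
IL11, chr19:55370464-55370713, minus strand: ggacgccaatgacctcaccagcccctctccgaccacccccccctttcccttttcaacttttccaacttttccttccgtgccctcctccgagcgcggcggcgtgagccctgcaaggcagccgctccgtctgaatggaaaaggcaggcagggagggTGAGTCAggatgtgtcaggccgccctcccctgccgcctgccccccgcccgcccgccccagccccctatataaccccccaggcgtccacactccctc
CSF2, chr5:132073539-132073788, plus strand: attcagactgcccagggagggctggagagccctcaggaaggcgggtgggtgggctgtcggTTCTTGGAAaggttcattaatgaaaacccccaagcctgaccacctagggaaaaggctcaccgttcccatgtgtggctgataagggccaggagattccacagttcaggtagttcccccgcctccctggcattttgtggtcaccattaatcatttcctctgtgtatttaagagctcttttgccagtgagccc
IL6, chr7:22726950-22727199, plus strand: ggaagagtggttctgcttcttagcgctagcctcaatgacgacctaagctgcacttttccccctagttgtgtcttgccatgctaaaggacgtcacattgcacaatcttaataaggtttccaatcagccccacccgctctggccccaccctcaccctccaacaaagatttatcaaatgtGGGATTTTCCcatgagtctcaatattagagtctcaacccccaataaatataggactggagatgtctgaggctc
The IL11 stretch holds 1 AP-1 match that begins 96 bases before the start, the CSF2 stretch 1 STAT match at 190 bases, and the IL6 stretch 1 NF-kB match at 73 bases. Over 35116 promoter stretches of the same length, 6.57% held an AP-1 match, 1.65% a cyclic AMP match, 6.57% a STAT match, 18.5% a hypoxia core and 5.21% an NF-kB match. The promoter table held 7 of the 10 members and none for LIF, CSF1 and CSF3. Of those not printed, IL10RA held 1 AP-1 match at 73 bases, IL1B 1 STAT match at 180 bases, IL1A AP-1 matches and a hypoxia core, and IL6ST no match. A match is a run of letters and not a measured binding site.

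The signals compared below are log2 values after each array was scaled to the same 75th percentile, which lies at 9.40 on this scale, and a difference of 1 is a 2-fold change. Levels are compared between arrays for 1 probe and not between probes. A probe counts as measured on an array where the scanner software called it well above background. The arrays differed in background: the lowest log2 signal of a measured probe was 3.83 on control array 1 and 3.89 on embelin array 2, against 5.85 on control array 2 and 5.97 on embelin array 1. The share of probes measured was 66.7%, 50.3%, 51.2% and 66.4% on control arrays 1 and 2 and embelin arrays 1 and 2. Each group therefore held 1 array of low and 1 of high background. For the tested member probes whose difference diverged most between these pairs, both values are given. IL1A, not tested, differed by 4.25 within the pair of low background and by 1.29 within that of high background. IL10RA probe 2, also not tested, differed by 1.35 and 6.13. The control arrays lay at the outer and the embelin arrays at the inner positions of 1 slide, so position and treatment cannot be told apart. In RNA from whole cultures, fewer expressing cells and less RNA per cell cannot be told apart either.

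IL11, a stromal cytokine of the IL6 family known for its roles in megakaryocyte growth and fibrosis, gave log2 signals of 10.11 and 10.26 in control and 12.62 and 12.57 after embelin. The groups were far apart, and the values within a group were nearly equal. The difference was 2.40 ± 0.18 (SE, n = 2 per group, limma 95% interval 1.92 to 2.89, adjusted p = 0.0302). Every array measured it, and all its values lay above the 75th percentile of the array. The adjusted p did not stay below 0.05 with any 1 array left out (0.0762 to 0.208), while the difference held its direction.

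LIF, which blocks differentiation of embryonic stem cells and takes part in inflammation, was measured by 2 probes. The brighter (GT_44k_24_P122137) gave 11.65 and 11.52 in control and 12.87 and 13.25 after embelin. Both embelin arrays lay more than 1 log2 unit above both controls, and the difference was 1.47 ± 0.22 (SE, n = 2 per group, 2.78-fold, limma adjusted p = 0.0729). The other LIF probe (GT_44k_24_P233488) was dim, with 4.89 and 4.43 in control and 5.84 and 6.07 after embelin, and was measured on only 1 array of each group. Its difference of 1.29 has the same direction as the brighter probe but was not tested, and the longest run of bases that the pair shares is 6, so they read different stretches of the transcript. OSM, the neighbour of LIF on chromosome 22 and a cytokine of the same family, gave 4.15 and 3.54 in control and 3.79 and 4.51 after embelin, and its groups overlapped.

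IL6, the founding member of the family and an inducer of the acute phase response, gave 8.86 and 8.65 in control and 7.71 and 7.64 after embelin. Every array measured it, and both embelin arrays lay about 1 log2 unit below both controls. The difference was -1.07 ± 0.19 (SE, n = 2 per group, interval -1.58 to -0.57, limma adjusted p = 0.0932), so that IL6 did not pass the test.

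**Figure D1:**
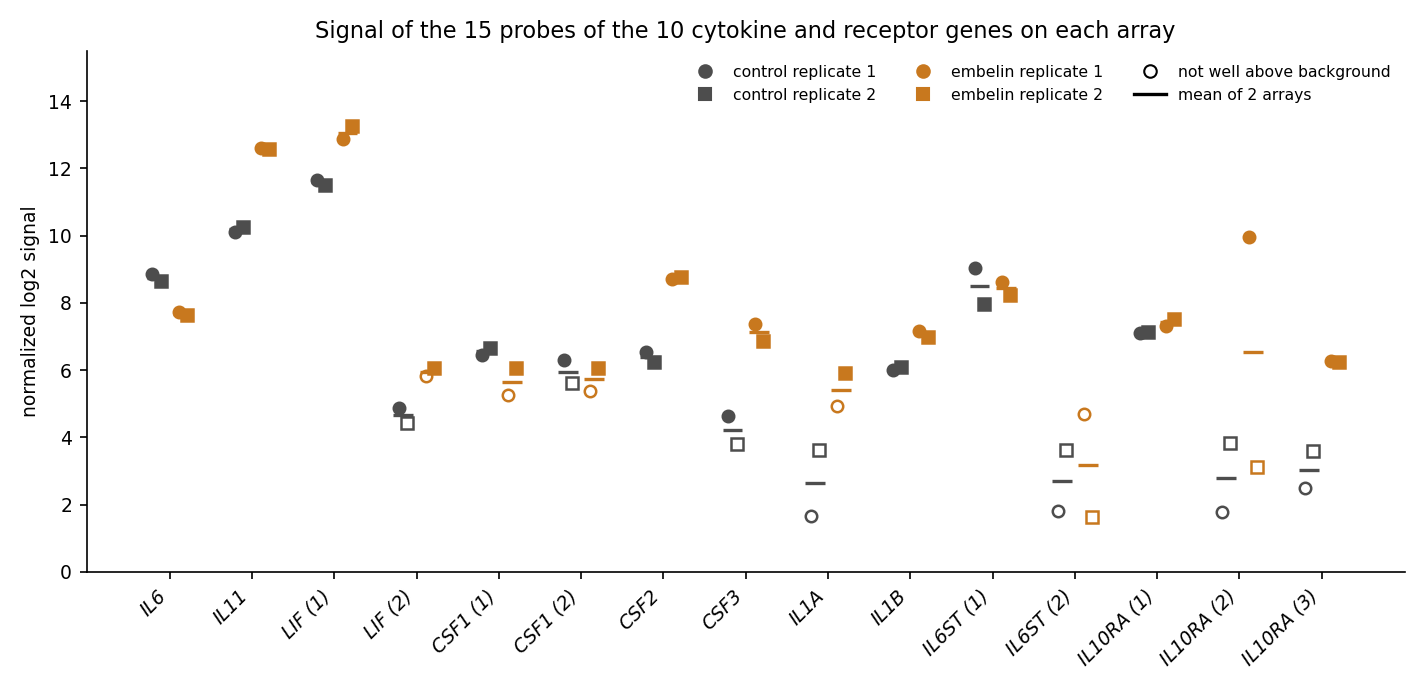
Log2 signal of each of the 15 member probes (vertical axis, 75th percentile shifted) on each array, with circles and squares for replicates 1 and 2, grey for control, orange for embelin, bars for group means, and open symbols where the probe was not well above background. IL11 at 12.62 and 12.57 and CSF2 at 8.70 and 8.78 on the embelin arrays stand clear of their controls, IL6 lies lower after embelin, and the second IL10RA probe is high on embelin array 1 alone.

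Of the colony-stimulating factors, CSF2 alone was called. CSF2, a growth factor for granulocytes and macrophages, gave 6.54 and 6.24 in control and 8.70 and 8.78 after embelin. It was measured on all 4 arrays, and the difference of 2.35 ± 0.20 (SE, n = 2 per group, interval 1.81 to 2.89) passed the test with an adjusted p of 0.0344 (limma). When the background was corrected by the normexp method, the difference was 1.65 for CSF2 and 2.28 for IL11. As with IL11, leaving out any 1 array took the adjusted p above 0.05 (0.0728 to 0.225). IL3, the neighbour of CSF2 on chromosome 5 and a cytokine with the same receptor beta chain, was above background on no array.

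CSF3, the growth factor of neutrophils, gave 4.62 and 3.79 in control and 7.38 and 6.86 after embelin. The groups did not overlap, but the second control value was not above background, so the probe passed the filter on dim probes only through the embelin arrays. Its difference of 2.91 ± 0.38 (SE, n = 2 per group, limma adjusted p = 0.0605) was 1.21 when the background was corrected by the normexp method. Within the pair of low background it was 2.24, and within the pair of high background 3.59.

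CSF1, the growth factor of macrophages, was measured by 2 probes and both were dim. The first (GT_44k_23_P407012) gave 6.46 and 6.66 in control and 5.26 and 6.06 after embelin, with the value on embelin array 1 not above background. Its difference was -0.90 ± 0.33 (SE, n = 2 per group, limma adjusted p = 0.273) and ranged from -1.30 to -0.50 as single arrays were left out. It was -0.41 within the pair of low background and -1.40 within that of high background. The second probe (GT_44k_23_P45133) gave 6.29 and 5.61 against 5.37 and 6.08, its groups overlapped, and it was measured on 1 array of each group. Neither CSF1 probe passed the test. The study drew a list of altered cytokine and receptor genes from these same samples, so the direction of CSF2, CSF3, IL10RA or any other member here is not independent evidence for that list.

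**Figure D2:**
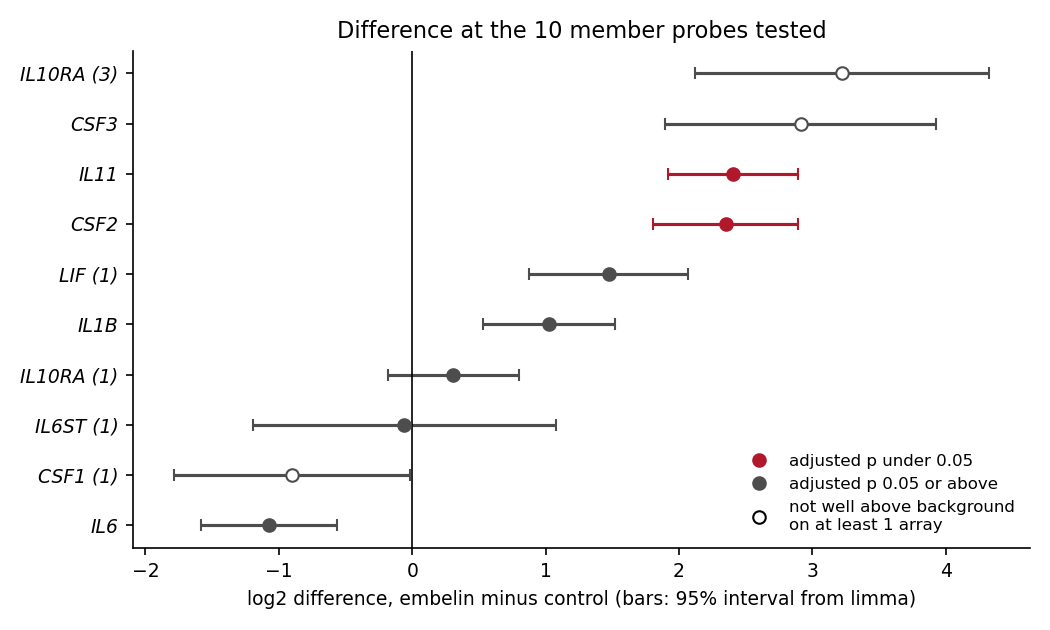
Embelin minus control difference in log2 signal (horizontal axis) for the 10 member probes tested, with limma 95% intervals, red for an adjusted p under 0.05, and open symbols for probes not well above background on at least 1 array. The intervals of IL11 (1.92 to 2.89) and CSF2 (1.81 to 2.89) lie well above 0, those of IL6 below it, and those of the first IL6ST and first IL10RA probes span it.

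IL1A and IL1B, the neighbouring genes on chromosome 2 that encode both forms of interleukin-1, were near the limit of the array. IL1B gave 6.0 and 6.09 in control and 7.15 and 6.99 after embelin, and was measured on all 4 arrays. The groups were separate by about 1 log2 unit, and the difference was 1.02 ± 0.18 (SE, n = 2 per group, 2.03-fold, interval 0.53 to 1.52, limma adjusted p = 0.0963). With normexp background correction the IL1B difference was 0.60. IL1A was measured on embelin array 2 alone, at 5.90. Its other values, 1.65 and 3.63 in control and 4.92 on embelin array 1, were not above background, so it was not tested. A bound was taken for probes above background on no array of 1 group by setting each array of that dim group to the lowest signal measured on it, or to the probe's own signal where that was higher, and leaving the brighter group at its own mean. By this rule IL1A was 1.48-fold higher after embelin, with that higher group itself measured on 1 of its 2 arrays. As the 4.92 in its mean was not above background, the value is not a strict lower limit.

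The receptor chains differed by probe. The brighter IL6ST probe (GT_44k_23_P502470) gave 9.02 and 7.96 in control and 8.62 and 8.24 after embelin, so the groups overlapped. The difference of -0.06 ± 0.42 (SE, n = 2 per group, interval -1.20 to 1.08, limma adjusted p = 0.963) leaves room for a change of about 2-fold either way. Within the pair of low background the difference was -0.78 and within that of high background 0.66, so its sign was not the same in both. The second IL6ST probe (GT_44k_24_P935033), placed on another transcript record, was above background on no array.

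IL10RA is shown by its 3 probes because they gave 3 different pictures. The first 30 of the 60 bases of each are printed as the files list them.
IL10RA probe 1 (GT_44k_24_P107303): aggcctgtgcgtgccatccagagtcatctc
IL10RA probe 2 (GT_44k_24_P52733): gaggaagaatcgcccttgacagatggcctt
IL10RA probe 3 (GT_44k_23_P203173): ctgacttgtctaattcatagggatgtgagg
Their G and C content is 55% in the first and second and 45% in the third, and no pair shares a run longer than 6 bases. Probe 1 was measured on every array, at 7.10 and 7.12 in control and 7.33 and 7.51 after embelin. Its difference was 0.31 ± 0.18 (SE, n = 2 per group, interval -0.19 to 0.80, limma adjusted p = 0.46). Probe 3 gave 2.50 and 3.58 in control, neither above background, and 6.28 and 6.25 after embelin. These groups were far apart, with a fitted difference of 3.22 ± 0.41 (SE, n = 2 per group, limma adjusted p = 0.0597), and on the bound described for IL1A the embelin signal was at least 2.68-fold higher. The probe passed the filter only through the embelin arrays, and its difference was 3.75 within the pair of low background, 2.70 within that of high background and 1.13 with normexp background correction.

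Probe 2 of IL10RA gave 9.96 on embelin array 1 but 3.12 on embelin array 2, and 1.76 and 3.83 in control, so the 2 embelin samples disagreed by more than 6 log2 units. Only the 9.96 was above background, and the probe was not tested. The bound taken over both embelin arrays, 3.25-fold, rests on that 1 array. With the 3.12 not above background, it is not a strict lower limit. A count made after this value was seen took probes measured on 1 array alone and at least 3 log2 units above the highest of the other arrays. There were 578 such probes on embelin array 1 and 388 on control array 2, the arrays of high background, against 1 on control array 1 and 0 on embelin array 2. The value of 9.96 meets this rule, and the part of array background in it was not tested. On embelin array 2, which has the lower background, probe 2 gave no signal above background.

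**Figure D3:**
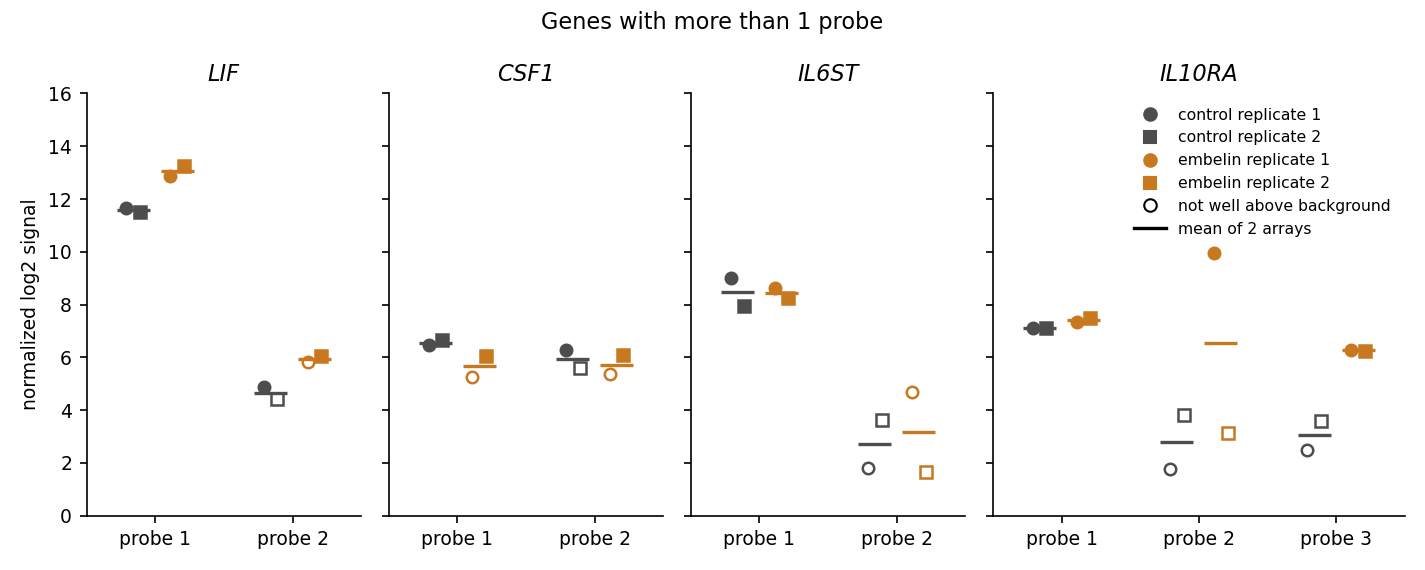
Log2 signal on each array (vertical axis, 75th percentile shifted) for the probes of LIF, CSF1, IL6ST and IL10RA, the members with more than 1 probe, with circles and squares for replicates 1 and 2, bars for group means, and open symbols where it was not well above background. Both LIF probes run higher after embelin, while IL10RA probe 1 is nearly level at 7.10 to 7.51, probe 2 reaches 9.96 on embelin array 1 only, and probe 3 is above background on the embelin arrays only.

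Among the 10 tested member probes, 7 had both embelin values above both controls and 2 had both below, where 21.4% of the 25631 kept probes with a value on all arrays lay above and 28.3% below. CSF3 and IL10RA probe 3 entered this count only through the embelin group and CSF1 only through the control group. The 7 member probes measured on every array (IL6, IL11, CSF2, IL1B and the first probes of LIF, IL6ST and IL10RA) had a median difference of 1.02, beside -0.05 over all 22752 such probes. Of these 7, 2 were called higher and 0 lower, beside 0.664% and 0.202% of the 22752. At an unadjusted p under 0.05, 6 of the 10 tested probes were higher and 2 lower, where 8.26% and 9.63% of all probes tested were. As the members were chosen with earlier results of these data known, these counts and the median are not independent evidence.

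Of the other genes of these pathways, IL1RAP alone was called. Of 59 listed, 58 were on the array with 85 probes, and 45 probes of 29 genes could be tested. The call was for 1 of the 4 IL1RAP probes, higher after embelin, which passed the filter on dim probes only through the embelin arrays. Lower calls numbered 0 (unadjusted, 7 higher and 3 lower). Of all probes tested, 0.83% were called higher and 0.249% lower, and at an unadjusted p under 0.05 by limma 8.26% were higher and 9.63% lower. The median difference of the 45 was -0.06, close to the -0.04 of all probes tested.

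Among the partners of IL6, IL11 and LIF, 0 of 4 tested ligand probes and 0 of 8 receptor probes were called by limma (at an unadjusted p under 0.05, 1 ligand probe higher, and 2 receptor probes higher and 1 lower). Beside shares of 0.83% called higher and 0.249% lower over all probes tested, 0 calls in these and the small sets below carry little weight. Unadjusted, the shares over all probes tested were 8.26% higher and 9.63% lower. The ligand with the largest difference was CLCF1, a ligand of the ciliary neurotrophic factor receptor, at 9.09 and 9.05 in control and 9.55 and 9.63 after embelin (0.52, limma adjusted p = 0.248). LIFR, the receptor chain that pairs with IL6ST for LIF, gave 7.08 and 8.08 in control and 5.49 and 6.05 after embelin on 1 probe (-1.81, limma adjusted p = 0.147). The 5.49 was not above background, so this probe passed the filter only through the controls, and its difference was -1.03 within the pair of low background and -2.59 within that of high background. The brighter LIFR probe gave 10.95 and 9.20 against 10.33 and 9.39, and its groups overlapped. OSMR, the partner of IL6ST for oncostatin M, was named after its values were seen. Its 3 tested probes differed by 0.93, 1.19 and 0.60, each with both embelin arrays above both controls and none called (limma adjusted p = 0.152, 0.0765 and 0.318). Of all kept probes with a value on all arrays, 21.4% also lay above both controls on both embelin arrays. Of 11 tested JAK and STAT probes 0 were called by limma, adjusted or not, with a median difference of -0.06. STAT5A had the largest of these among kept probes, at 0.42 (limma adjusted p = 0.343), and the 3 tested probes of STAT3 differed by -0.40, -0.29 and -0.20.

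Of the IL1 pathway, 11 probes of 9 further ligand genes, the antagonist IL1RN among them, included 1 that could be tested, that of IL18, at 11.47 and 11.48 in control and 11.26 and 11.53 after embelin. IL1RAP, the accessory chain that every IL1 receptor complex needs for signalling, had 4 tested probes. The called probe was the dimmest, with 4.33 and 4.00 in control, of which 1 was above background, and 6.15 and 6.33 after embelin (2.07, limma adjusted p = 0.0467). It passed the filter only through the embelin arrays. Further IL1RAP probes measured on all arrays gave 1.77 and 1.53 (limma adjusted p = 0.0754 and 0.114), and the remaining probe gave 5.34 and 8.71 against 6.87 and 6.60 and overlapped. Thus 3 of the 4 lay higher on both embelin arrays, where 21.4% of all kept probes with a value on all arrays did. IRAK2, a kinase that carries the signal from the receptor complex, gave 4.64 and 5.12 in control and 6.58 and 7.08 after embelin (1.95, limma adjusted p = 0.0729). With 1 of the controls above background, IRAK2 also passed the filter only through the embelin arrays. IL1R1, the signalling receptor chain itself, was named after its values were seen and differed by -0.24 on its kept probe (limma adjusted p = 0.548).

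Of the receptors for the colony-stimulating factors, CSF2RA alone had probes that could be tested, 2 of them, at -0.50 and -0.37, neither of them called. In the IL10 family, 4 probes were tested and 0 called by limma, adjusted or not. IL22RA1, a receptor chain for IL22, gave -0.56 on 1 probe (limma adjusted p = 0.425), which was not above background on embelin array 1 and passed the filter only through the controls, and -0.30 on the other, which every array measured.

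**Figure D4:**
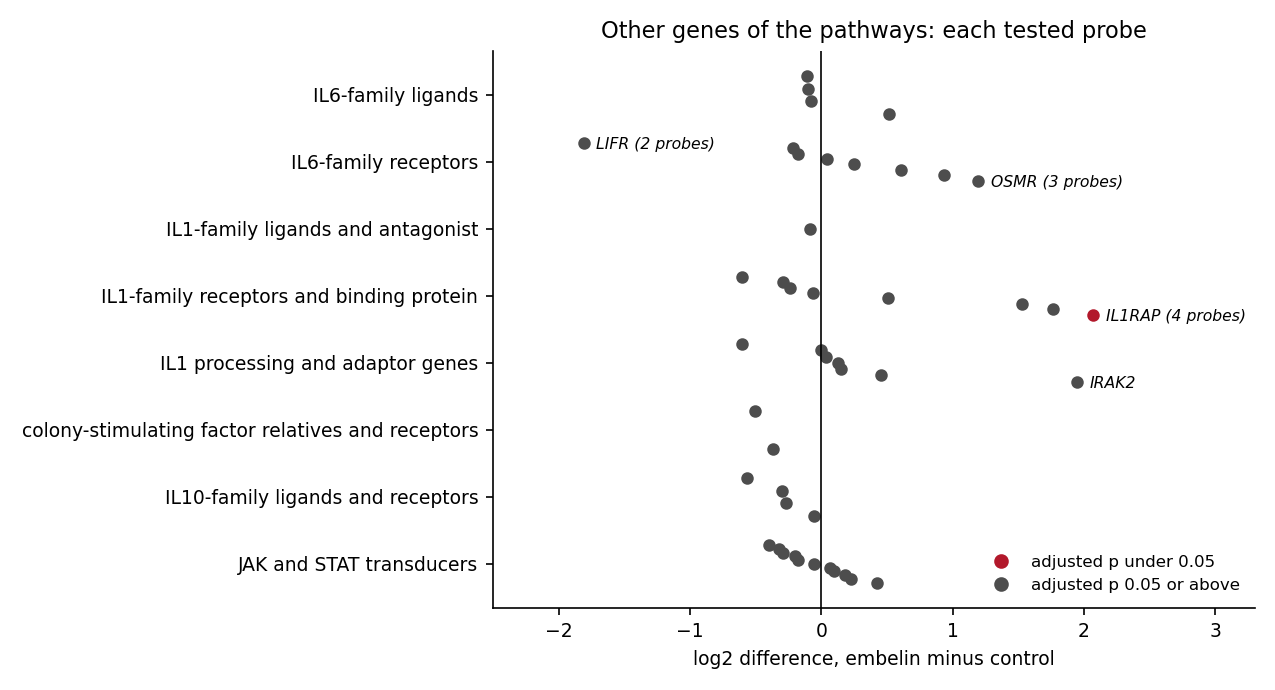
Embelin minus control difference in log2 signal (horizontal axis) for the 45 tested probes of the other pathway genes, 1 row per role group and 1 point per probe, with red for an adjusted p under 0.05 and names for genes far from 0. The IL1RAP probe at 2.07 is the 1 called, and the JAK and STAT probes cluster around their median of -0.06.

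Markers of the labelled cell type and of other sources of these cytokines were set beside these values. Of 13 probes for epithelial genes of A549, 12 were measured on all arrays and 0 were called by limma, adjusted or not. Of these 12, 7 had both embelin values below both controls and 1 had both above. The shares over all kept probes with a value on all arrays were 28.3% below and 21.4% above. The log2 of the summed signal of the 13 was 20.14 to 20.25 in control and 19.97 to 19.98 after embelin. Of 10 leukocyte probes 3 were tested and 0 called (unadjusted, 1 lower), with sums of 9.76 to 9.97 in control and 9.42 to 10.33 after embelin. The defining leukocyte genes LYZ and MS4A1 were above background on no array, and PTPRC only on embelin array 1. CSF1R and SPI1 were each above background on 1 embelin array and no control array. CD14, of monocytes, was measured on every array, with group means of 9.54 in control and 8.93 after embelin. CD3E and ITGAM, each above background on 1 control array, had tested probes that passed the filter only through the embelin arrays. These differed by 1.25 and 1.35 (limma adjusted p = 0.309 and 0.397), with both embelin arrays above both controls. Within the pair of low background they differed by 0.35 and 0.12, and within that of high background by 2.16 and 2.57. Of 12 fibroblast and endothelial probes, the 3 tested were all of COL1A1, a collagen chain, and 1 of them was called higher (1.84, limma adjusted p = 0.0485). That probe was above background on 1 control array and passed the filter only through the embelin arrays, while the COL1A1 probe measured on all arrays gave 1.30 (limma adjusted p = 0.0661). The summed fibroblast and endothelial signal was 8.07 to 8.16 in control and 9.26 to 9.80 after embelin, with PDGFRB and CDH5 above background on no array. The sum on embelin array 1 includes a COL1A2 probe at 8.30 there. That probe gave 1.65 and 3.64 in control and 1.70 on embelin array 2, none above background. On each PECAM1 and VWF probe the groups overlapped. The part of such cells in the cytokine differences was not tested.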

How the data were processed

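Total RNA of 2 control and 2 embelin samples (labelled replicates 1 and 2 of each group) was hybridized with 1 dye, Cy3, to a custom human array from Agilent, 1 array per sample. The authors deposited scanner intensities from Feature Extraction 10.7.3.1 (per the file headers), already background-subtracted and detrended but not scaled between arrays. A second deposited table held probe values on the same linear intensity scale, which differed from averages of those spots by more than 0.001 in log2 for 97 to 117 probes per array. Its column medians were 58.5 to 74.0, and it served as an alternative. Values on the log2 scale were computed here from the deposited intensities.

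Each array was scaled to a common 75th percentile as in the study's methods (721, 601, 648 and 739 before scaling on control arrays 1 and 2 and embelin arrays 1 and 2), set to at least 1, and put on the log2 scale. Spots called outliers by the software were left out, none of them on a member probe, and no spot was saturated. Of 50238 probes, 28595 were named through their accession, 2998 by a current and 1176 by an older symbol, and 17469 stayed as the files name them. A probe was kept where both arrays of 1 group or of both had it well above background (26146, of which 26145 had values to test). Each probe was tested on its own with limma 3.58.1 in R 4.3.3 (lmFit and eBayes, two-sided, prior of 2.31 degrees of freedom), adjusted by Benjamini-Hochberg over all probes tested, and the fit was tested on simulated data. The correlation over the 22415 probes well above background and with a value on all 4 arrays was 0.981 within controls, 0.982 within embelin and 0.957 to 0.965 between them. The number of arrays limits the precision, and the median pooled SD over probes was 0.228 in log2.

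The text names every member probe, each pathway gene with a called probe, and per role group the gene with the largest difference among kept probes. Other genes are said to be named after their values were seen. The members and lists were chosen with earlier results of these data known. Alternatives were normexp background correction (offset 50), quantile normalization, the deposited probe values, no filter, 1 probe per gene, a filter on all 4 arrays, a replicate block, trend and robust in eBayes, the methods' t-test, and leaving out each array. Promoters came from RefSeq (GRCh38.p14), and probe positions in the genome were not used here.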

Additional observations from a re-analysis of the deposited data

How the results depend on the processing

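The brighter IL6ST probe, near 0 with all 4 arrays, ranged from -0.59 to 0.47 as single arrays were left out, and every other tested member probe kept its direction under each alternative. Only normexp, quantile normalization, the deposited values and leaving out an array change the difference itself. The untested member probes had a value only without a filter, which uses the same signals and could not change their direction. With 2 arrays per group the calls were unstable, and with an array left out the lone array of a group is assumed to vary like those of the other group. IL11 and CSF2 were each called in 6 of 13 alternatives, with adjusted p from 0.00114 to 0.516 and from 0.00817 to 0.532. They were lost without any 1 array (IL11 0.0762, 0.147, 0.208 and 0.108, and CSF2 0.0728, 0.168, 0.225 and 0.113, without control 1, control 2, embelin 1 and embelin 2), without a filter (0.516 and 0.532) and in the methods' t-test (0.173 and 0.213). Member probes called higher numbered 4 with normexp and 0 with no filter, the methods' t-test, the replicate block or any array left out (unadjusted 8, 6, 6 and 6). The 0 member probes called lower by limma stayed 0 throughout (unadjusted 1 to 2). LIF's brighter probe was called with normexp, a filter on all 4 arrays, and trend and robust (adjusted p = 0.0401, 0.0373 and 0.00846), and IL10RA probe 3 with normexp (log2 1.13, 0.046) and quantile normalization (log2 3.33, 0.0351).

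Over all probes, 217 higher and 65 lower calls became 541 and 278 with normexp, 132 and 26 with the deposited probe values, 476 and 292 with the filter on all 4 arrays, and 743 and 553 with trend and robust. Quantile normalization gave 31 lower and 1 probe per gene 98 lower. No calls were left in either direction with no filter (0, unadjusted 1541 higher and 1403 lower), the methods' t-test (0, unadjusted 1657 and 2039) or any array left out (0 to 0, unadjusted 1391 to 2134 higher and 1185 to 2192 lower). The count of pathway probes called higher, 1 (of IL1RAP), became 2 with normexp, the filter on all 4 arrays, and trend and robust, and 0 with quantile normalization, the deposited values, no filter, the t-test, the replicate block, 1 probe per gene or any array left out (unadjusted 8, 7, 7, 7, 6, 5 and 5 to 7).

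With the replicate block 0 probes were called in either direction (unadjusted 2504 higher and 2777 lower), and the adjusted p was 0.0788 for IL11 and 0.0864 for CSF2. Deviations of same-numbered arrays from their group means correlated at 0.214 over 25631 probes, and with only 2 pairs whose numbers the labels do not tie to a shared source the numbers were not taken as pairs.

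The median difference over all probes, -0.04, ranged from -0.11 to 0.06 over the alternatives. Signal over background limited CSF3, IL1A, CSF1, the second LIF and IL6ST probes, and IL10RA probes 2 and 3.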
